A study of Mus musculus with 8 samples.

Results

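The genes described here are 10 adhesion genes of kidney epithelium, Cdh1, Cdh3, Cdh16, Epcam, Dsp, Pkp2, Jup, Dsg2, Dsc2 and Ctnnb1, chosen by symbol out of 77981 genes in the deposited expression table. All 10 were found, each under 1 Ensembl identifier, and all 10 had a mean of at least 1 TPM (a transcript abundance scaled for transcript length and to the same total in every library), the minimum for testing. The samples are mouse kidney RNA with the cell type given as IMCD, the inner medullary collecting duct, which is the last tubule segment before urine leaves the kidney. 4 libraries have the genotype AVP-flox;Cre, in which a Cre recombinase is added to a vasopressin gene (Avp) flanked by loxP sites. The other 4 have the genotype AVP-flox, the same floxed gene without Cre, and all 8 libraries were from tamoxifen treatment, a drug used to switch on inducible forms of Cre. The sources used here give neither the promoter that drives Cre nor the animals' ages, and there is no control with Cre and an unfloxed Avp gene. Libraries with Cre and without Cre always mean AVP-flox;Cre and AVP-flox.

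Epithelial cells hold together through junctions. In the adherens junction, classical cadherins such as E-cadherin bind each other across the gap between cells and are tied to actin through beta-catenin and its relatives. In the desmosome, desmogleins and desmocollins, which are cadherins as well, bind across the gap, and plakoglobin, plakophilins and desmoplakin tie them to keratin filaments inside the cell. EpCAM is a surface glycoprotein of the lateral membrane that is not a cadherin, and beta-catenin also carries Wnt signals to the nucleus.

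The depth behind the values is unknown, because TPM keeps no record of read number. Avp ranged between 0 and 0.27 TPM with Cre and between 0 and 0.24 TPM without Cre (exact permutation test, two-sided p = 0.686), and since vasopressin is made in the hypothalamus these kidney values do not check the deletion. The collecting duct markers were present in both groups, with Aqp2, the vasopressin-regulated water channel, at 6304 ± 754 TPM in AVP-flox;Cre and 15995 ± 1467 TPM in AVP-flox (SD, n = 4 each). 3 libraries stood apart. The number of genes detected above 0 TPM was 33576 in AVP-flox;Cre 2, while the remaining 7 libraries ranged between 50951 and 58232. The number reaching 1 TPM was 23412 in AVP-flox;Cre 4 and between 16608 and 20765 elsewhere. Mitochondrially encoded transcripts made up 2.35% of AVP-flox 2 and between 3.75% and 4.42% of the remaining AVP-flox libraries. With Cre this share was 2.40% to 2.85%, below 3 of the 4 libraries without Cre, and its part in the differences between genotypes was not tested. By sex-linked genes, 2 libraries with Cre and 1 without Cre had a male profile. The labels do not say that the replicates are separate animals, so the spread behind each p-value is that between samples and may be technical.

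5 of the 10 genes were higher in AVP-flox;Cre and 0 were lower, in limma with adjusted p under 0.05 over all 19043 genes tested. The genes that rose were Cdh16, Epcam, Cdh3, Dsg2 and Dsc2, all of which encode proteins of the cell surface. The 5 that did not pass were Cdh1, Ctnnb1, Jup, Dsp and Pkp2, of which all but Cdh1 encode cytoplasmic plaque proteins. Over all genes tested, 27.3% passed in either direction and 13.1% were higher. The same 5 genes had every AVP-flox;Cre library above every AVP-flox library, as did 14.7% of all genes tested. The median log2 fold change was 0.32 over the 10 genes and -0.01 over all genes tested. Its median SE was 0.10 over the 10 genes and 0.16 over all genes tested, so the shares past the threshold are not like for like. Without AVP-flox;Cre 2 and 4 and AVP-flox 2, 3 of the 10 (Cdh16, Epcam and Dsg2) were past the threshold and 0 were lower. In that setting 2224 of all 19043 genes tested passed. At an unadjusted p under 0.05, 1 gene (Jup) was lower. The GENCODE M21 annotation (GRCm38) places Cdh1, Cdh3 and Cdh16 on chromosome 8, Ctnnb1 on 9, Jup on 11, Dsp on 13, Pkp2 on 16, Epcam on 17, and Dsg2 and Dsc2 on 18. In a bulk sample, more cells of a type and more RNA per cell cannot be told apart.

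**Figure D1:**
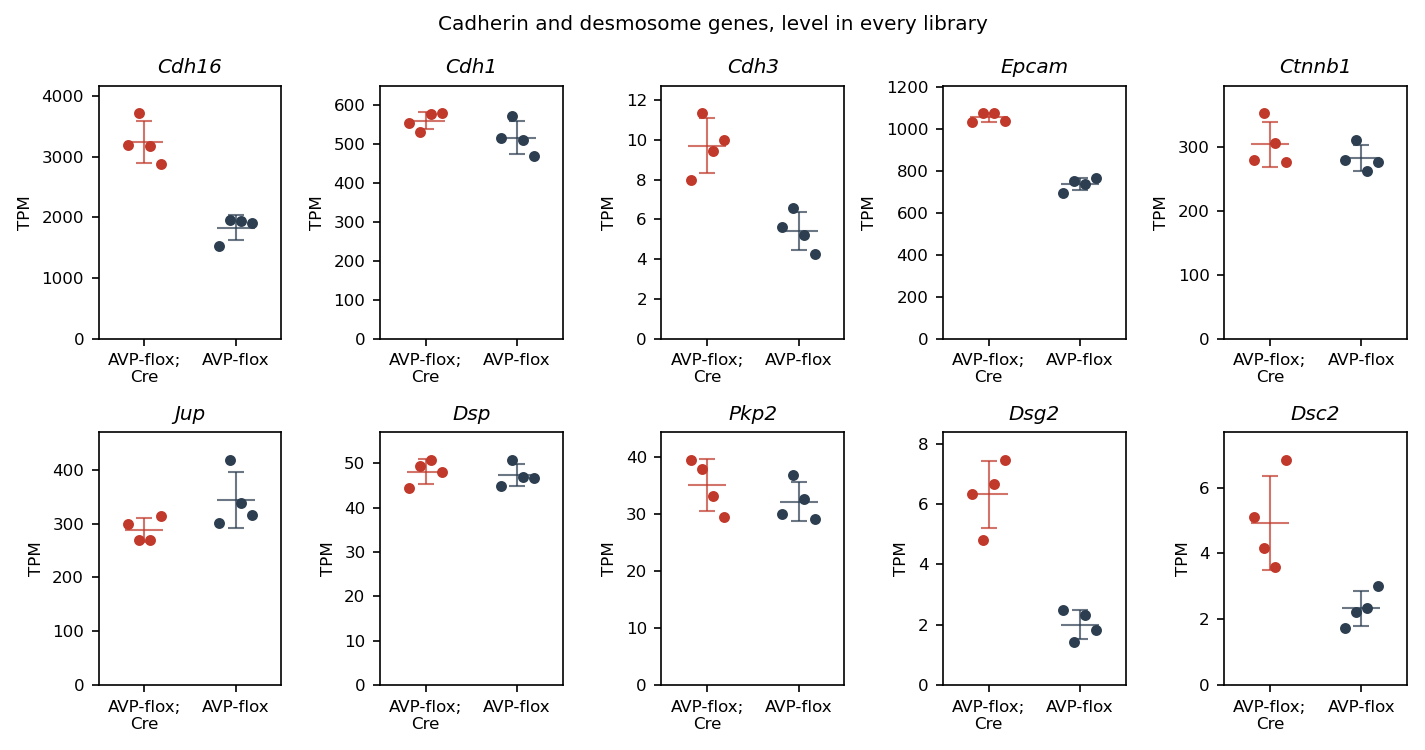
Level in TPM (vertical axis, from 0) of each of the 10 genes in the 4 AVP-flox;Cre libraries (red) and the 4 AVP-flox libraries (dark blue). Each point is 1 library, and the horizontal mark and bar are the mean and SD. The groups are apart for Cdh16, Cdh3, Epcam, Dsg2 and Dsc2 and overlap for Cdh1, Ctnnb1, Jup, Dsp and Pkp2.

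Cdh16 (ENSMUSG00000031881) encodes Ksp-cadherin, a cadherin of kidney tubules with a short cytoplasmic tail. It was the most abundant of the 10 genes in both groups. Its level was 3188, 3717, 3173 and 2872 TPM in AVP-flox;Cre 1 to 4, against 1526, 1946, 1938 and 1908 TPM in AVP-flox 1 to 4. All AVP-flox;Cre libraries lay above all AVP-flox libraries, with AVP-flox 1 below the other libraries of its group. Cdh16 was 1.77-fold higher, at 3238 ± 352 TPM with Cre against 1830 ± 203 TPM without Cre (SD, n = 4 each), and its log2 fold change on the TPM + 1 scale was 0.82 (SE 0.10, limma, adjusted p = 0.000433). That rise came to 1408 TPM, the largest in TPM of the 10 genes.

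Cdh1 (ENSMUSG00000000303) encodes E-cadherin, the main classical cadherin of epithelia. It stood at 555, 532, 577 and 580 TPM in AVP-flox;Cre 1 to 4, against 516, 572, 510 and 470 TPM in AVP-flox 1 to 4. The groups overlapped, since AVP-flox 2 lay above AVP-flox;Cre 1 and 2. The means were 561 ± 22.6 TPM in AVP-flox;Cre and 517 ± 42.0 TPM in AVP-flox (SD, n = 4 each), and the log2 fold change of 0.12 had a 95% interval of -0.04 to 0.28 (limma, adjusted p = 0.240). That interval leaves out a rise as large as that of Cdh16.

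Cdh3 (ENSMUSG00000061048) encodes P-cadherin, a classical cadherin known from basal layers of stratified epithelia. It was scarce beside Cdh16 and Cdh1, at 8.00, 11.35, 9.45 and 9.97 TPM in AVP-flox;Cre 1 to 4, against 5.60, 6.55, 5.22 and 4.27 TPM in AVP-flox 1 to 4. The groups did not overlap. Cdh3 was 1.79-fold higher, at 9.69 ± 1.38 TPM with Cre against 5.41 ± 0.944 TPM without Cre (SD, n = 4 each), with a log2 fold change of 0.74 (SE 0.15, limma, adjusted p = 0.00601). Its difference of 0.69 without the 3 libraries that stood apart was not past the threshold (limma, adjusted p = 0.0684).

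The make-up of the 3 cadherin transcripts is given as shares, with no test. Cdh16 made up 82.9% to 87.3% of their summed TPM in AVP-flox;Cre, against 74.5% to 80.1% in AVP-flox. Cdh1 made up 12.5% to 16.8% with Cre and 19.7% to 25.2% without Cre, while Cdh3 stayed between 0.179% and 0.288% in all 8 libraries. A ratio of 2 genes within a library does not depend on how that library was scaled, so 4 such ratios were compared. Cdh16 to Cdh1 was 5.74, 6.99, 5.50 and 4.95 in AVP-flox;Cre 1 to 4, against 2.96, 3.40, 3.80 and 4.06 in AVP-flox 1 to 4. The log2 ratio was higher by 0.70 in AVP-flox;Cre, with no overlap (exact permutation test, two-sided p = 0.0286, the smallest that 4 against 4 allows, and 0.0572 after Benjamini-Hochberg adjustment over the 4 ratios). Cdh3 to Cdh1 was higher by 0.73 on the log2 scale, again with no overlap and with the same exact p = 0.0286 and adjusted p = 0.0572. After adjustment neither ratio was past 0.05.

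**Figure D2:**
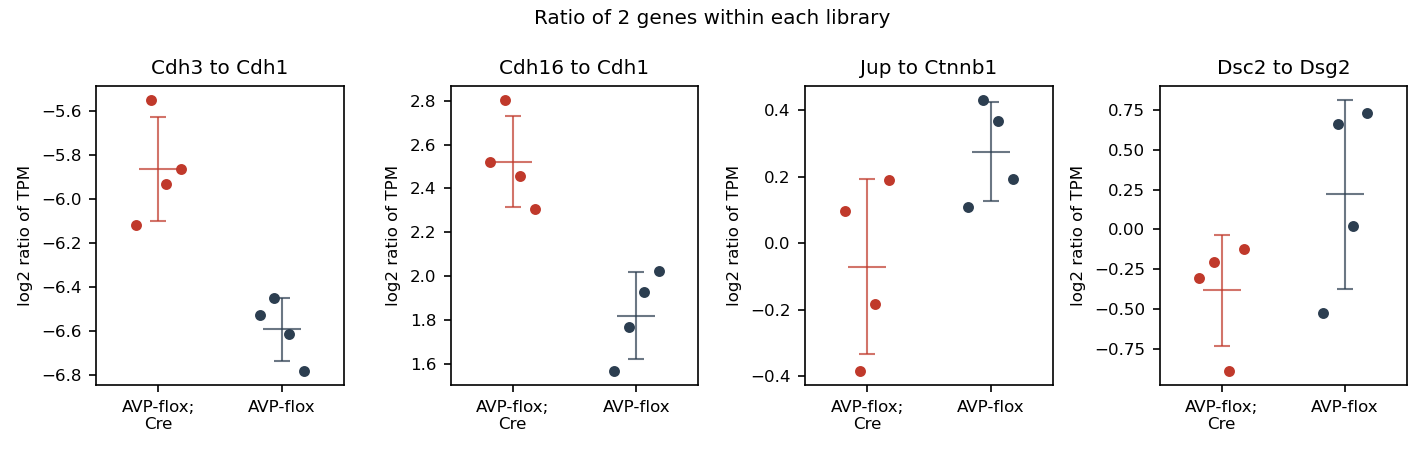
Log2 ratio of TPM between 2 genes in the same library (vertical axis) for 4 gene pairs, in AVP-flox;Cre (red) and AVP-flox (dark blue). Each point is 1 library, with mean and SD. The groups do not overlap for Cdh3 to Cdh1 and Cdh16 to Cdh1, and overlap for Jup to Ctnnb1 and Dsc2 to Dsg2.

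Epcam (ENSMUSG00000045394) encodes EpCAM, which binds claudin-7 and is a common marker of epithelial cells. Its level was 1033, 1075, 1076 and 1040 TPM in AVP-flox;Cre 1 to 4, against 696, 750, 736 and 765 TPM in AVP-flox 1 to 4. The groups were far apart and the libraries within each close together. Epcam was 1.43-fold higher, at 1056 ± 22.5 TPM with Cre against 737 ± 29.5 TPM without Cre (SD, n = 4 each). Its log2 fold change was 0.52 (SE 0.06, limma, adjusted p = 0.000186), the smallest adjusted p of the 10 genes. Its spread was also the smallest, with an SD of 2.13% of the mean with Cre and 4.00% without Cre.

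RefSeq promoter windows, from 250 bases before to 50 after a gene's start (build GRCm38.p6), matched 4 of the 10 genes by symbol, Epcam, Dsp, Jup and Ctnnb1. The windows of Epcam, which rose, and of Dsp, which did not pass the test, are shown because both hold the E-box CACCTG, a motif that repressors of epithelial genes such as the Snail and Zeb proteins are known to bind. Capitals mark CACCTG or its reverse complement CAGGTG, searched on both strands.
Epcam, chr17:87635729-87636028, plus strand: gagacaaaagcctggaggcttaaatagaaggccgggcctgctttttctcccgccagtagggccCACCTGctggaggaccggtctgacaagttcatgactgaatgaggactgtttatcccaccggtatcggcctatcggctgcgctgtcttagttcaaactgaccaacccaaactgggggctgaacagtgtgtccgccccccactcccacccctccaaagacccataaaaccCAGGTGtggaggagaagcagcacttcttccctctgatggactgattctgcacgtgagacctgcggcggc
Dsp, chr13:38151044-38151343, plus strand: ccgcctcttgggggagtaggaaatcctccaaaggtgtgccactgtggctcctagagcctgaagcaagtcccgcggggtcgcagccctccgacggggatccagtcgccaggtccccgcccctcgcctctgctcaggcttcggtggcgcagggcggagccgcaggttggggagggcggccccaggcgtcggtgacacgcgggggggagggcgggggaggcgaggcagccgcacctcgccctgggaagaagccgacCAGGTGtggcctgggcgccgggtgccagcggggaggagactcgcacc
The Epcam window holds 2 matches, whose first bases lie 187 and 19 bases before the start, and the Dsp window holds 1, at base 4 after it. The window of Jup and the 2 windows of Ctnnb1 hold 0. Of 32851 windows of this length, 20.2% hold at least 1. The windows also differ in base composition, with 57.0% GC for Epcam and 73.0% GC for Dsp. No binding was measured in these samples, so a match is a description of the letters.

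Of 6 genes for known E-cadherin repressors, 4 were abundant enough to be tested and 0 passed in limma, while 1 (Zeb1) had an unadjusted p under 0.05. Zeb1 stood at 7.89 ± 1.26 TPM with Cre and 5.99 ± 0.604 TPM without Cre (SD, n = 4 each, limma, unadjusted p = 0.0401, adjusted p = 0.110). Zeb2 stood at 18.9 ± 4.13 TPM with Cre and 14.0 ± 4.04 TPM without Cre. Snai1 stood at 2.09 ± 0.924 TPM with Cre and 2.37 ± 1.27 TPM without Cre, and Snai2 at 12.6 ± 7.30 TPM with Cre and 13.7 ± 1.34 TPM without Cre. Twist1 and Twist2 were below the minimum for testing.

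Among the plaque proteins of the adherens junction, Ctnnb1 (ENSMUSG00000006932), which encodes beta-catenin, stood at 280, 353, 306 and 276 TPM in AVP-flox;Cre 1 to 4, against 280, 311, 262 and 277 TPM in AVP-flox 1 to 4. The groups overlapped through most of their range, with AVP-flox;Cre 2 highest. The log2 fold change was 0.10, with a 95% interval of -0.10 to 0.30 (limma, adjusted p = 0.452). The GENCODE M21 annotation (GRCm38) places Ulk4 and an antisense RNA on the opposite strand over part of Ctnnb1, and since counting by strand is not stated, their reads and those of Ctnnb1 may not be separable. Ulk4 was at 4.91 ± 1.34 TPM in AVP-flox;Cre and 2.11 ± 0.92 TPM in AVP-flox, far below Ctnnb1.

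Jup (ENSMUSG00000001552) encodes plakoglobin, a close relative of beta-catenin that serves in both adherens junctions and desmosomes. It stood at 299, 270, 270 and 314 TPM in AVP-flox;Cre 1 to 4, against 302, 419, 338 and 317 TPM in AVP-flox 1 to 4. AVP-flox 2 was the highest library, and AVP-flox;Cre 4 lay above AVP-flox 1. Jup was the only one of the 10 genes with a negative log2 fold change, -0.24 (95% interval -0.48 to -0.01), which had an unadjusted p = 0.0412 and was not past the threshold (limma, adjusted p = 0.112). The ratio of Jup to Ctnnb1 was 0.765 to 1.14 with Cre and 1.08 to 1.35 without Cre, a log2 difference of -0.35 that did not pass (exact permutation test, two-sided p = 0.0571, adjusted p = 0.0761 over the 4 ratios).

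In the desmosome, the 2 cadherins rose while the plaque proteins did not pass the test. Dsg2 (ENSMUSG00000044393), which encodes desmoglein-2, the desmoglein of simple epithelia, stood at 6.33, 4.81, 6.67 and 7.47 TPM in AVP-flox;Cre 1 to 4, against 2.48, 1.41, 2.31 and 1.81 TPM in AVP-flox 1 to 4. The lowest AVP-flox;Cre library was above the highest AVP-flox library. Dsg2 was 3.16-fold higher, at 6.32 ± 1.11 TPM in AVP-flox;Cre against 2.00 ± 0.487 TPM in AVP-flox (SD, n = 4 each), the largest fold of the 10 genes. Its log2 fold change was 1.29 (SE 0.19, limma, adjusted p = 0.000946), a value that the added 1 TPM makes smaller for so scarce a gene. With a pseudocount of 0.1 it was 1.62, and with a pseudocount of 5 it was 0.69, both past the threshold.

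Dsc2 (ENSMUSG00000024331) encodes desmocollin-2, the partner of desmoglein-2. It stood at 5.11, 4.17, 3.59 and 6.85 TPM in AVP-flox;Cre 1 to 4, against 1.72, 2.23, 2.34 and 3.01 TPM in AVP-flox 1 to 4. The groups did not overlap, though AVP-flox;Cre 3 and AVP-flox 4 were close. Dsc2 was 2.12-fold higher, at 4.93 ± 1.43 TPM in AVP-flox;Cre against 2.33 ± 0.531 TPM in AVP-flox (SD, n = 4 each), with a log2 fold change of 0.82 (SE 0.21, limma, adjusted p = 0.0164). For Dsc2 a pseudocount of 0.1 gave 1.04 and a pseudocount of 5 gave 0.43, both past the threshold. Its difference of 0.68 without the 3 libraries that stood apart was not past the threshold (limma, adjusted p = 0.145). The ratio of Dsc2 to Dsg2 overlapped between groups, at 0.538 to 0.917 with Cre and 0.694 to 1.66 without Cre, and its log2 difference of -0.60 did not pass (exact permutation test, two-sided p = 0.171, adjusted p = 0.171).

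Dsg2 and Dsc2 lie in a cluster of desmosomal cadherin genes on chromosome 18, in which Dsg3 lies next to Dsg2, and Dsc3 and Dsc1 flank Dsc2 (GENCODE M21). Those neighbours, known mainly from stratified epithelia such as skin, were near 0. Dsg3 stood at 0.03 to 0.22 TPM with Cre and 0.03 to 0.04 TPM without Cre, Dsc3 at most at 0.45 TPM and Dsc1 at most at 0.47 TPM in any library. An antisense RNA over part of Dsg2 (Gm16090) stood at 0.01 to 0.14 TPM with Cre and 0.01 to 0.09 TPM without Cre.

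Dsp (ENSMUSG00000054889) encodes desmoplakin, which ties the plaque to keratin filaments. It was at 44.3, 49.4, 50.8 and 47.9 TPM in AVP-flox;Cre 1 to 4, against 44.8, 50.8, 47.0 and 46.7 TPM in AVP-flox 1 to 4. The groups covered nearly the same range. The log2 fold change was 0.02 with a 95% interval of -0.14 to 0.19 (limma, adjusted p = 0.849), and its sign turned under 4 alternatives.

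Pkp2 (ENSMUSG00000041957) encodes plakophilin-2, a plaque protein that binds desmoplakin. It was at 39.6, 38.0, 33.2 and 29.6 TPM in AVP-flox;Cre 1 to 4, against 30.1, 36.8, 32.8 and 29.1 TPM in AVP-flox 1 to 4, and the groups overlapped. The log2 fold change was 0.12 with a 95% interval of -0.14 to 0.37 (limma, adjusted p = 0.489). Per TPM of Dsg2 and Dsc2 together, there were 3.35 to 5.51 TPM of Dsp in AVP-flox;Cre, against 9.68 to 14.0 TPM in AVP-flox. Dsp transcripts outnumbered those of the desmosomal cadherins in every library, and the ranges of the groups did not overlap.

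**Figure D3:**
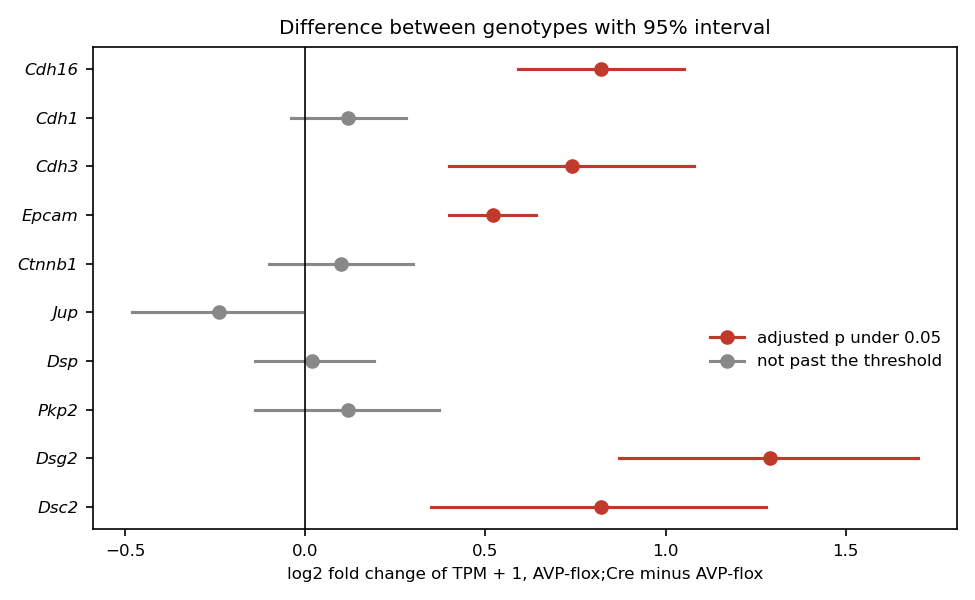
Log2 fold change of TPM + 1 (horizontal axis, AVP-flox;Cre minus AVP-flox) of the 10 genes, with points for the estimate and lines for the 95% interval from limma. The 5 genes past an adjusted p of 0.05 (red) run from 0.52 for Epcam to 1.29 for Dsg2, and the other 5 (grey) from -0.24 for Jup to 0.12.

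Levels of the 10 genes, which TPM allows to be compared, spanned 657-fold with Cre and 915-fold without Cre. In AVP-flox;Cre the order was Cdh16, Epcam, Cdh1, Ctnnb1, Jup, Dsp, Pkp2, Cdh3, Dsg2 and Dsc2. Ctnnb1 and Jup, at 304 ± 35 and 288 ± 22 TPM, differed by less than their spread, as did Dsg2 and Dsc2. In AVP-flox the order was Cdh16, Epcam, Cdh1, Jup, Ctnnb1, Dsp, Pkp2, Cdh3, Dsc2 and Dsg2, and Dsc2 and Dsg2 again differed by less than their spread. Jup was above Ctnnb1 in 4 of 4 AVP-flox libraries by a mean of 62.0 TPM, more than the SD of either, though the ranges of the genes overlapped. The 2 neighbouring pairs that changed places between genotypes were Ctnnb1 with Jup and Dsg2 with Dsc2. Cdh16 was above 99.9% of all genes tested in AVP-flox;Cre and above 99.8% without Cre, while Dsc2 was above 37.1% with Cre and above 24.2% without Cre.

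The genes whose profile over the 8 libraries was most like that of Cdh16 were Mmrn2, H3f3a and Capg, with root mean square differences of 0.0485, 0.0755 and 0.0847 in mean-centred log2 values, among 11739 genes with a symbol and a mean of at least 5 TPM. For Epcam they were Tapbp (0.0339), Abhd16a (0.0390) and Rnf128 (0.0393). For Cdh1 they were Plekhg5 (0.0388), Stat6 (0.0397) and Poldip3 (0.0408).

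The wider set, of genes of junctions, of their regulators and of beta-catenin signalling, moved in both directions. Over 10 lists of 97 related genes, 84 were tested, of which 20 were higher, 15 lower and 49 not past the threshold with Cre. That is 41.7% past the threshold, against 27.3% of all genes tested. The lists were chosen with earlier results of these data known, so the higher share is not independent of these data. Without the 3 libraries that stood apart, 10 were higher and 9 lower. In that setting 2224 of all 19043 genes tested passed, 1218 higher and 1006 lower, against 5204 with all 8 libraries.

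Target genes of beta-catenin had the highest median of the 10 lists. Of its 7 tested members, 5 were higher, 0 lower and 2 not past, with a median log2 fold change of 0.65 against -0.01 over all genes. For this and each later list, 13.1% of all genes tested were higher and 14.2% lower. Axin2, a feedback inhibitor that Wnt signals induce, stood at 8.60, 10.5, 11.1 and 11.6 TPM in AVP-flox;Cre 1 to 4, against 2.53, 3.23, 3.62 and 2.63 TPM in AVP-flox 1 to 4. The groups did not overlap, and Axin2 was 3.48-fold higher (log2 fold change 1.52, SE 0.15, limma, adjusted p = 0.000121). Nkd1, another Wnt antagonist, rose 2.12-fold, to 32.9 ± 2.7 TPM with Cre against 15.5 ± 3.9 TPM without Cre (limma, adjusted p = 0.000849). Rnf43 and Znrf3, ubiquitin ligases that remove Wnt receptors, rose 1.59-fold (limma, adjusted p = 0.000220) and 1.71-fold (limma, adjusted p = 0.00954), and Lgr5 rose 2.05-fold. Notum, at 9.51 ± 1.13 TPM with Cre and 12.6 ± 1.96 TPM without Cre, had an unadjusted p = 0.0255 in limma and did not pass after adjustment. Ccnd1, at 6.59 ± 0.747 TPM with Cre and 6.18 ± 2.55 TPM without Cre, did not pass either. Without the 3 libraries that stood apart, Axin2, Nkd1 and Rnf43 were past the threshold, while Znrf3 (limma, adjusted p = 0.117) and Lgr5 were not. Ctnnb1 itself, as given above, did not pass.

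In the machinery that degrades beta-catenin and its TCF partners, 3 of 13 tested genes were higher, 2 lower and 8 not past, with a median of 0.17. Axin1, the scaffold of the destruction complex, fell to 10.8 ± 2.65 TPM with Cre, against 23.0 ± 6.59 TPM without Cre (log2 fold change -1.02, limma, adjusted p = 0.00818). Gsk3a, a kinase of that complex, fell to 12.5 ± 5.4 TPM with Cre, against 23.3 ± 0.9 TPM without Cre, with AVP-flox;Cre 2 and 4 lowest at 8.19 and 7.73 TPM. Its call ended with no filter on low values, without AVP-flox;Cre 4 and without the 3 libraries that stood apart (adjusted p up to 0.0789 in limma). Tcf7l2, a nuclear partner of beta-catenin, rose 1.43-fold, and Csnk1a1, a kinase that primes beta-catenin for removal, rose 1.16-fold. The call for Csnk1a1 ended under 14 of 24 alternatives, among them without AVP-flox;Cre 1, 3 or 4 and without any 1 AVP-flox library, and that for Tcf7l2 ended with no filter and without the 3 libraries that stood apart (adjusted p up to 0.122 in limma). Gsk3b was at 18.6 ± 1.9 TPM with Cre and 15.4 ± 1.4 TPM without Cre and did not pass.

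Among 14 adherens junction partners, 3 were higher, 2 lower and 9 not past, with a median of 0.16. Nectin2 and Nectin4, which encode immunoglobulin-like adhesion proteins of the junction, rose 1.64-fold, to 183 ± 8 TPM with Cre against 111 ± 12 TPM without Cre, and 2.31-fold, to 7.86 ± 0.504 TPM with Cre against 3.40 ± 0.515 TPM without Cre (limma, adjusted p = 0.000252 and 0.000711). Lima1, an actin-binding protein, rose 1.52-fold. Vcl, which encodes vinculin, fell to 50.4 ± 6.4 TPM with Cre, against 73.8 ± 12.9 TPM without Cre (log2 fold change -0.53, limma, adjusted p = 0.0141), and was not past the threshold without the 3 libraries that stood apart (limma, adjusted p = 0.0646). Ctnna1, which encodes the alpha-catenin that links beta-catenin to actin, was at 394 ± 26 TPM with Cre and 386 ± 18 TPM without Cre and did not pass.

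Of 10 other desmosome genes, 5 were tested, Perp fell and 4 did not pass. Perp, a membrane protein of desmosomes, was at 56.9 ± 8.9 TPM with Cre against 98.9 ± 13.6 TPM without Cre (log2 fold change -0.79, SE 0.13, limma, adjusted p = 0.00154), opposite in direction to Dsg2 and Dsc2. Ppl, which encodes the plaque protein periplakin, was at 111 ± 10.5 TPM with Cre and 109 ± 14.9 TPM without Cre. Of 4 keratins of simple epithelia, to which desmosomes attach, Krt7 rose 1.46-fold and Krt18 rose 1.30-fold, and Krt8 and Krt19 did not pass. Without the 3 libraries that stood apart, or with median-of-ratios scaling, Krt18 was not past the threshold (adjusted p up to 0.104 in limma).

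Partners of EpCAM split. Of 7 tested, 3 were higher and 3 lower, and the median was 0.02. Prss8, a membrane-anchored protease, rose 1.67-fold, to 114 ± 6 TPM with Cre against 67.9 ± 5.2 TPM without Cre (limma, adjusted p = 0.000146). Spint1, a protease inhibitor, rose 1.37-fold, and Cldn7, the claudin that EpCAM binds, was at 338 ± 55 TPM with Cre against 240 ± 18.4 TPM without Cre, a rise that was not past the threshold without the 3 libraries that stood apart. Cd9, a tetraspanin, fell by 0.38 on the log2 scale (limma, adjusted p = 0.00301), and was not past the threshold with median-of-ratios scaling (limma, adjusted p = 0.0578).

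Among 13 tested cadherins outside the 10 genes, 2 were higher, 2 lower and 9 not past, with a median of 0.15. Fat1, a giant atypical cadherin, rose 1.39-fold, to 20.3 ± 1.4 TPM with Cre against 14.7 ± 1.7 TPM without Cre. Cdh6, a cadherin of the developing nephron, was at 11.6 ± 1.8 TPM with Cre against 8.38 ± 0.57 TPM without Cre, a rise whose call ended under 9 of 24 alternatives, among them without AVP-flox;Cre 3 or 4 and without any 1 AVP-flox library. With the 3 libraries that stood apart left out, Fat1, Cdh6 and Cdh4 were not past the threshold (adjusted p up to 0.112, 0.214 and 0.131 over all alternatives in limma), and Fat1 was not past it with median-of-ratios scaling either. Pcdh1, a protocadherin, and Cdh4, R-cadherin, fell by 0.77 and 0.87 on the log2 scale. Cdh2, N-cadherin, was at 4.39 ± 0.905 TPM with Cre and 6.23 ± 1.33 TPM without Cre and did not pass (limma, adjusted p = 0.118).

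Regulators of epithelial identity had 1 higher, 4 lower and 6 not past of 11 tested, with a median of 0.08. Grhl1 and Grhl2 encode grainyhead-like factors that are known activators of epithelial junction genes. Grhl2 was at 35.3 ± 4.2 TPM with Cre against 24.7 ± 4.3 TPM without Cre, with an overlap through AVP-flox 4, and Grhl1 fell to 7.71 ± 0.36 TPM with Cre against 13.7 ± 0.9 TPM without Cre. The call for Grhl2 ended under 5 of 24 alternatives, among them without AVP-flox;Cre 3, without AVP-flox 3 and without the 3 libraries that stood apart. Esrp2, an epithelial splicing factor, fell by 0.58 and Elf3, an ETS factor, by 0.36 on the log2 scale, and the call for Elf3 ended under 7 alternatives, without AVP-flox;Cre 1, AVP-flox;Cre 4 or AVP-flox 4 among them. Of 6 tested proteases and subunits that cleave cadherins, Ncstn, a subunit of gamma-secretase, rose 1.38-fold (limma, adjusted p = 0.000279) and Adam15 fell by 0.85 on the log2 scale (limma, adjusted p = 0.000410). Adam10, the main sheddase of E-cadherin, was at 53.8 ± 4.7 TPM with Cre and 55.2 ± 2.6 TPM without Cre and did not pass.

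**Figure D4:**
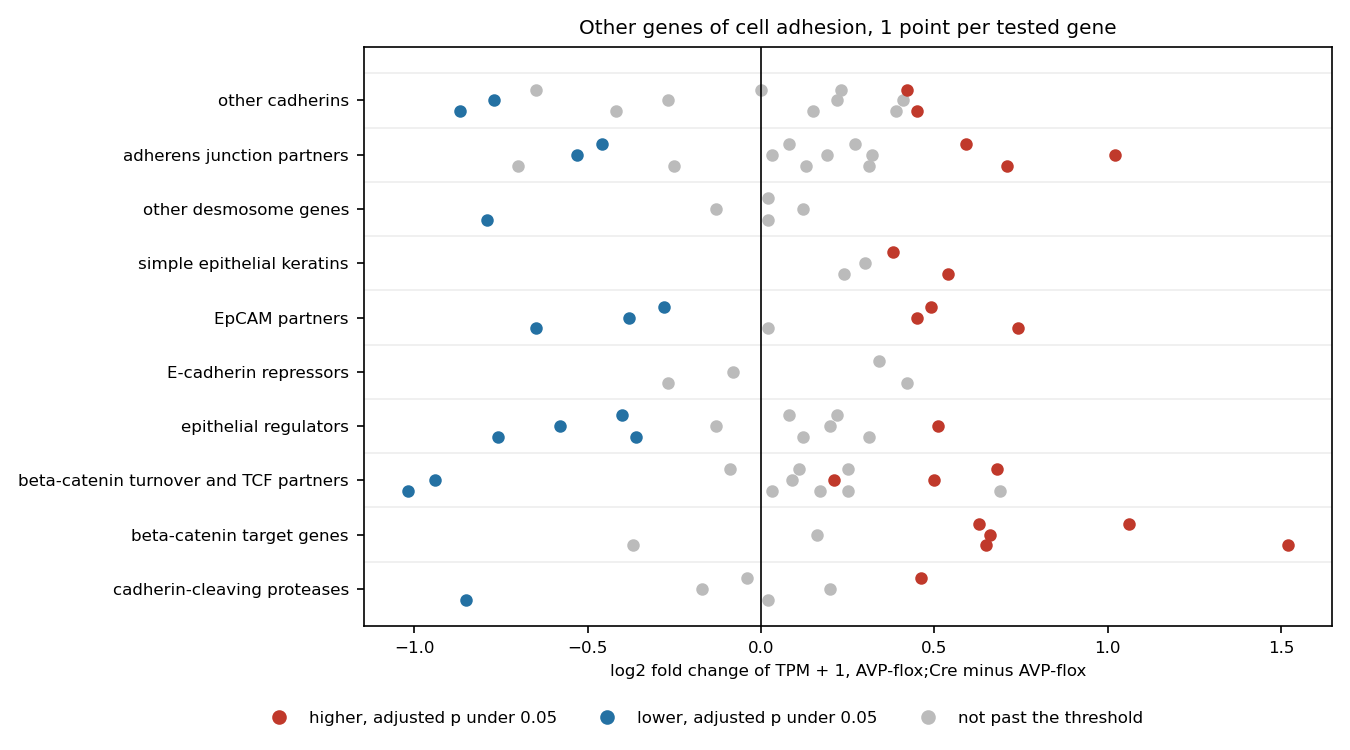
Log2 fold change of TPM + 1 (horizontal axis, AVP-flox;Cre minus AVP-flox) of the 84 tested genes in 10 lists (rows), 1 point per gene, red where higher and blue where lower at an adjusted p under 0.05 in limma and grey otherwise. Beta-catenin target genes have 5 points to the right in red, led by Axin2 at 1.52, and Notum in grey to the left at -0.37. Most other lists have points on both sides of 0 as well.

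Of 8 collecting duct principal cell markers 2 were higher and 3 lower (sums 10361 to 12403 TPM with Cre, 19528 to 23583 TPM without Cre). Leaving out Aqp2, the sums of the other 7 overlapped, at 4917 to 5713 TPM with Cre and 4436 to 5563 TPM without Cre. Markers of other cell types that these samples could hold moved as well, beside 13.1% of all genes tested higher and 14.2% lower. Of 8 tested markers of the papillary surface and urothelium, the lining where the duct opens, 6 were higher and 1 lower, and their summed level, mostly Psca, was 5012 to 5762 TPM with Cre against 1797 to 2820 TPM without Cre. Of 6 fibroblast and pericyte markers 2 were higher and 0 lower (sums 233 to 295 TPM with Cre, 113 to 155 TPM without Cre), and of 4 tested leukocyte markers 1 was higher and 0 lower (sums 45.7 to 63.1 TPM with Cre, 28.9 to 36.8 TPM without Cre). Of 5 endothelial markers 1 was higher and 2 lower (sums 1729 to 1798 TPM with Cre, 2174 to 2261 TPM without Cre). Intercalated cell sums overlapped, at 228 to 305 TPM with Cre and 156 to 263 TPM without Cre, with 2 of 5 tested markers higher. Thick limb sums were 1341 to 1577 TPM with Cre and 931 to 2736 TPM without Cre, with 2 of 4 markers higher and 0 lower. The thick limb ranges overlapped only through AVP-flox 2, at 931 TPM. AVP-flox 1, 3 and 4 were at 2736, 2470 and 2567 TPM, above every library with Cre. Without the 3 libraries that stood apart, 0 thick limb markers were higher and 2 (Umod and Slc12a1) lower, and 4 papillary surface markers were higher and 0 lower. Proximal tubule sums were 8.33 to 14.9 TPM with Cre and 3.92 to 48.3 TPM without Cre, with 0 of 3 tested markers past the threshold. Krt20 (papillary surface), Slc26a4 (intercalated), Slc5a12 (proximal tubule), and Cd3e and Cd79a (leukocyte) had group means under 1 TPM in both groups, and no listed marker was at 0 in every library. The part of these cells in the rises of Cdh16, Epcam, Cdh3, Dsg2 and Dsc2 was not tested.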

How the data were processed

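RNA was measured in 8 libraries of mouse kidney labelled IMCD, 4 AVP-flox;Cre and 4 AVP-flox. Per the labels' protocols, cDNA was made with the SMART-Seq HT kit and tagmented with Nextera XT, and the tools listed, per the submitters' processing notes, include STAR and RSEM. The genome build is not given in the sources used here. The authors deposited TPM per Ensembl gene, and each column sums to 1000000 within 2.04. Columns named KO were read as AVP-flox;Cre and those named WT as AVP-flox, by replicate number. No column was left out. Depth is unknown, so no counting intervals are given.

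The table has 78298 identifiers. Those lacking a symbol (21883) were used under the identifier, and rows were added up for 312 symbols that occur more than once. log2(TPM + 1) values of the 19043 genes averaging 1 TPM or more were compared with limma 3.58.1 in R 4.3.3 (mean-variance trend, two-sided, Benjamini-Hochberg over all genes tested, threshold 0.05). Log2 differences subtract AVP-flox from AVP-flox;Cre, and folds are ratios of mean TPM. Ratios were compared with exact permutation tests in SciPy 1.17.1. On simulated data for this comparison (19043 genes, 5 runs of 200 changed genes), limma recovered 59.8% of log2 changes of 1 and 91.8% of log2 changes of 2, with 45 false calls in all. In the data 5204 genes passed, far more than 200, so these rates do not give the recovery there.

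The genes and lists were chosen with earlier results of these data known. Genes named are the 10 genes, Avp, Aqp2, up to 4 called genes per list with the smallest adjusted p, and the 3 nearest profiles. Other list members were named after their values were seen. GENCODE M21 gave chromosomes, overlaps and 5' GC content (87.4% of genes tested), and RefSeq (GRCm38.p6) the promoters. Alternatives were a replicate block, pseudocounts, filters, scalings, limma settings, sex as a covariate, a 5' GC correction, a threshold of 0.1 and leaving out libraries.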

Additional observations from a re-analysis of the deposited data

Results flagged for a closer look

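In groups of 4, a library was picked out where its gap to the nearest other library was above Dixon's 95% critical value as a share of the group's range. 86 groups were examined, and chance gives about 1 in 20. These groups did not cover every listed gene. Among those outside them, Nectin3 in AVP-flox;Cre 1 was at 95.87 TPM, against 25.47 to 31.75 TPM in the other AVP-flox;Cre libraries. Tcf7 in AVP-flox;Cre 1 was at 17.1 TPM, against 2.94 to 4.89 TPM. Cdh16 in AVP-flox 1, at 1526 TPM, was below the other AVP-flox libraries, which lay at 1908 to 1946 TPM. Esrp2 in AVP-flox;Cre 2, at 52.5 TPM, was below the 64.6 to 64.8 TPM of the other AVP-flox;Cre libraries. Rnf43 in AVP-flox;Cre 2, at 76.4 TPM, was above the 69.4 to 69.9 TPM of the others. AVP-flox;Cre 2 is also the library with the fewest genes above 0 TPM, and its part in these values was not tested. Without AVP-flox 1, Cdh16 had a log2 fold change of 0.74 and stayed past the threshold in limma.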

How the results depend on the processing

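Cdh16 and Epcam were past the threshold and higher under all 24 alternatives, with log2 fold changes of 0.69 to 0.88 and 0.41 to 0.54, and Dsg2 under the 23 that tested it (0.69 to 1.62). Cdh3 and Dsc2 kept their direction under all alternatives that tested them, and their calls ended only when the 3 libraries that stood apart were left out (0.69 and 0.68, adjusted p = 0.0684 and 0.145 in limma), where 3 of the 10 genes and 2224 of all genes passed, 1218 higher and 1006 lower. With a filter at 5 TPM, 3 of the 10 genes passed because Dsg2 and Dsc2 were not tested. With no filter, 3409 of 67580 genes passed and 1643 were lower, against 5204 and 2713 of 19043. Dsp changed sign at values near 0, at -0.0021 with median-of-ratios scaling, -0.0056 when rescaled without mitochondrial and the 10 most abundant genes, -0.0025 without AVP-flox;Cre 3 and -0.0018 without AVP-flox 1. Leaving out 1 library at a time, it ran from -0.0025 to 0.06. The causes were not tested where the number of genes or libraries does not give them. Cdh1, Ctnnb1, Jup and Pkp2 stayed short of the threshold with their sign unchanged under 24 alternatives each. Samples of the same replicate number did not deviate together, with correlations of 0, 0.02, 0.09 and 0 for numbers 1 to 4. With the replicate number as a block, 4431 genes passed (2187 higher and 2244 lower) and 5 of the 10 genes were higher, with no call among the 10 changed. For the 4 ratios the smallest exact permutation p is 0.125 with the replicate block and 0.0571 with 1 library left out. Depth is unknown, so the counting error of the scarce Cdh3, Dsg2 and Dsc2 cannot be given.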
